A study of Mus musculus with 12 samples.

Results

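The comparison of the Rhy group with the model group took in 6 of the 12 sequenced colon libraries, 3 from mice given dextran sodium sulfate (DSS) together with Rhy and 3 from mice given DSS alone, and it was followed across all genes. Both groups were wild-type male C57BL/6J mice, 5 weeks old at the start, with acute colitis induced by DSS. By treatment they differ in the addition of rhynchophylline (Rhy), an alkaloid of the herb Uncaria rhynchophylla. The sampled libraries also differed in other ways, which are described below. The protocol describes Rhy at 2, 4 or 8 mg/kg, and the labels do not name the dose of the sequenced mice. The other 6 libraries came from untreated control mice, whose values are given as background, and from mice given DSS and dexamethasone (DXM, 4 mg/kg), which entered only the shared estimate of the spread. RNA was taken from sections of washed colon, and each library is 1 labelled sample, so p-values measure the spread between these samples. The question is which genes of the inflamed colon were at another level when Rhy was given.

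DSS is a sulfated polysaccharide that is toxic to the colonic epithelium. Loss of surface cells opens the barrier to luminal bacteria, immune cells enter the mucosa, and crypt cells divide to cover the wound while fibroblasts and smooth muscle rebuild the wall beneath. The aryl hydrocarbon receptor (AhR) is a transcription factor opened by small ligands, with the detoxifying enzyme Cyp1a1 as its classic target, and Nr4a1 is an orphan nuclear receptor of the immediate early class; the study asked whether both act on the tight junction proteins that seal the epithelium.

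Before the genes, the libraries themselves differed in ways that touch the results. Total counts were 15544386 to 16948352 in the model group and 14346478 to 16303944 in the Rhy group. Values below are CPM, the read count of a gene scaled to the size of its library. Model 1 and model 2 were nearly the same library: their common dispersion, a measure of spread beyond counting, was 0.00201 against 0.0834 to 0.241 in the other 14 pairs of the 6 libraries, although their counts still differed by more than sampling noise, with a mean chi-square of 2.86 per gene where counting alone gives 1. They were kept as separate libraries, and the counts of calls over all genes are also given with the pair summed. With the pair summed, the genes under an unadjusted p of 0.05 by edgeR went from 3 to 0 in the mitosis list, from 6 to 2 in the interferon list, from 10 to 6 in the brush border list, from 9 to 6 in the matrix glycoprotein list, and from 2 to 0 in both the T cell and the macrophage list, all described below. Genes described below that no longer passed that threshold with the pair summed were Cenpa, Ncapd2, Espl1, Ezr, Reg4, Ugt1a6a, Ifit3, Zbp1, Lck, Cd3e, Cd163, Mrc1, Actg2, Hhip, Akr1c14, mt-Nd3, Ptprn2 and Lpar1. Markers of gut epithelium were present in every library, though Epcam and Cdx1 do not tell colon from small intestine. Epcam, the epithelial adhesion molecule, was at 1553 to 2129 CPM, and Cdx1, a gut transcription factor, at 453 to 652 CPM. Hoxb13, which marks the distal end of the body axis, was at 226, 205 and 1.49 CPM in model 1 to 3 and at 0, 316 and 230 CPM in Rhy 1 to 3. Each group therefore held 1 library almost without Hoxb13 (model 3 and Rhy 1), and the gene lists below are also described between those 2 libraries and between the other 4. Where the sections lay along the colon is not in the labels.

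By edgeR's quasi-likelihood test, 0 of 16904 genes (0%) passed an adjusted p of 0.05, with 0.964 as the smallest value. Genes under 0.05 before adjustment numbered 628 (3.72%), of which 294 (1.74%) were higher and 334 (1.98%) lower in the Rhy group. DESeq2 on the 6 libraries alone called 44 of 19247 genes (0.229%) at its adjusted p of 0.05, 29 higher and 15 lower, and 17 when model 1 and model 2 were summed, 14 of them among the 44. With that pair summed, edgeR again called 0 genes by adjusted p and 283 by unadjusted p. The 3 Rhy libraries all lay above the 3 model libraries for 932 genes (5.51%) and all below them for 1018 genes (6.02%). With model 1 and 2 summed, these counts were 1173 and 1319 of 17346 genes. Over all genes tested, 48.3% had a fold change above 0 and the median log2 fold change was -0.01. These shares are the background against which the lists below are read. No gene is described as changed, since none passed edgeR's adjusted threshold. A gene said below to pass the unadjusted threshold is 1 of the 628, and genes with a fold change and standard error but no such remark are among them too.

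**Figure D1:**
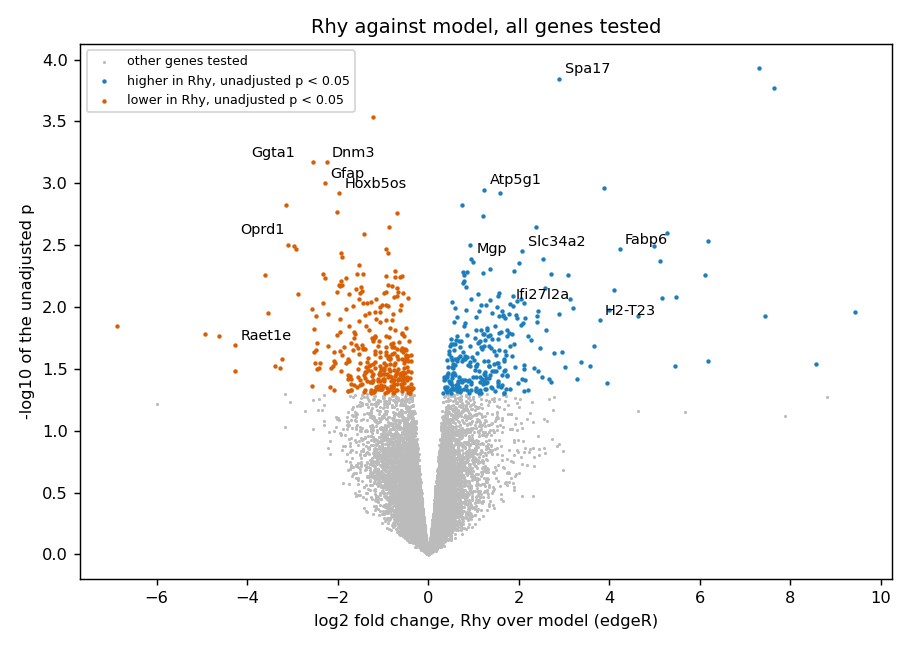
Log2 fold change of Rhy over model on the x axis against -log10 of the unadjusted edgeR p on the y axis, 1 point for each of the 16904 genes tested. The 294 blue points are higher and the 334 orange points lower in the Rhy group at an unadjusted p under 0.05, and 0 of the points passed the adjusted threshold.

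Genes of cell division were lower in the Rhy group almost without exception. Of 45 genes of the spindle, kinetochore and mitotic kinases, 44 had a fold change below 0 (median -0.58 in log2). Of these 45, 9 lay entirely below the model libraries and 3 had an unadjusted p under 0.05 in the lower direction, which became 0 by edgeR with model 1 and 2 summed and also without Rhy 1, without model 1 or without model 2. Cenpa, the histone variant that marks the centromere, was at 25.2, 26.6 and 18.7 CPM in model 1 to 3 and at 12.2, 13.8 and 15.3 CPM in Rhy 1 to 3. All Rhy values of Cenpa were below all model values and within or just under the 14.0 to 17.5 CPM of the control libraries, and the log2 fold change was -0.77 ± 0.28 (log2 units ± SE, as for all fold changes below). Ncapd2, a condensin subunit that compacts mitotic chromosomes, was at 32.2, 31.2 and 20.2 CPM against 10.3, 14.5 and 19.0 CPM, again without overlap (log2 fold change -0.93 ± 0.38). Espl1, the protease that releases sister chromatids, overlapped between the groups, since Rhy 3 at 8.83 CPM lay above model 3 at 6.67 CPM. The step to the DNA itself was less uniform. Of 36 replication genes, 25 were lower with a median of -0.12, and 1 had an unadjusted p under 0.05. That gene was Tk1, the thymidine kinase of S phase, at 47.7, 46.8 and 31.7 CPM in model 1 to 3 and at 16.6, 24.2 and 26.9 CPM in Rhy 1 to 3 (log2 fold change -0.90 ± 0.29).

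The mitotic list was lowest in Rhy 1, whose mean was 3.14 log2 CPM against 3.71 in Rhy 2 and 4.17 in Rhy 3, and the model libraries were at 4.42, 4.44 and 4.01. Rhy 3 thus lay above model 3. Without Rhy 1 the median was -0.36 with 43 of 45 genes still lower, and without Rhy 3 it was -0.83 with all 45 lower. Rhy 1 also had the highest mitochondrial share of counts of the 6 libraries, 23.8% against 8.90% to 15.2% in the other 5, and the fewest genes detected, 19477 against 21178 to 22720, and their part in the mitosis and interferon values was not tested. Between the libraries almost without Hoxb13 the list was 0.87 log2 units lower in Rhy 1 than in model 3, and among the other 4 libraries it was 0.49 lower in the Rhy libraries. The replication list differed in this respect: it was 0.86 lower in Rhy 1 than in model 3 but 0.03 higher in Rhy 2 and 3 than in model 1 and 2, and without Rhy 1 its median turned to 0.16 with 24 of 36 genes higher. In whole tissue, fewer cells of a type and less RNA per cell cannot be told apart.

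The promoters of mitotic genes share a short element that many genes of late cell cycle carry, the cell cycle homology region with the letters TTTGAA, and the Cenpa window is shown because that gene had the smallest p of the list. The RefSeq window runs from 250 bases before to 50 bases after the start, on chr5:30666636-30666935 of GRCm38.p6, plus strand, with the element in capitals.
Cenpa: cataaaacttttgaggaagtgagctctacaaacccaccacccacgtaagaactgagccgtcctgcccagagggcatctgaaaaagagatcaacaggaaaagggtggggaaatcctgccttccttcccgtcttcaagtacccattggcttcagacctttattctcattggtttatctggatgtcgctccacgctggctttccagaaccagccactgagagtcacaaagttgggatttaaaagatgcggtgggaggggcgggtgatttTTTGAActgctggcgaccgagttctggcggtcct
The element, read on both strands, was present in a window of 28 of the 37 mitotic genes with a RefSeq window (75.7%), in 4 of 30 replication genes (13.3%) and in 14.8% of all tested genes with a window. It was in a window of 42 of 231 genes lower in the Rhy group at an unadjusted p under 0.05 (18.2%) and of 29 of 190 genes higher (15.3%). This element and the interferon element below were looked up after the lists' values were known, and a match describes letters, not binding.

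Genes answering to interferon were higher in the Rhy group. Interferons are cytokines that switch on antiviral proteins through the STAT and IRF factors, and of 34 such genes 31 had a fold change above 0 (median 0.54 in log2). For 12 of the 34 the lowest Rhy library was above the highest model library, and 6 had an unadjusted p under 0.05, all of them higher. Ifi27l2a, an interferon-induced protein of the mitochondrial membrane, was at 85.1, 83.2 and 45.3 CPM in model 1 to 3 and at 455, 194 and 101 CPM in Rhy 1 to 3. Its groups did not overlap, and the log2 fold change was 1.81 ± 0.59. Isg15, a ubiquitin-like modifier, was at 109, 102 and 86.2 CPM against 284, 256 and 155 CPM (log2 fold change 1.23 ± 0.44). Ifit3, which helps to hold back foreign RNA, was at 13.7, 13.9 and 12.8 CPM against 52.4, 37.4 and 25.3 CPM, a log2 fold change of 1.51 ± 0.62. DESeq2 on the 6 libraries called Ifit3 and Isg15, with adjusted p of 0.000989 and 0.00547, and neither with model 1 and 2 summed, where these were 0.0628 and 0.158. Zbp1, a sensor of unusual nucleic acids, was at 72.6, 72.0 and 59.7 CPM against 114, 122 and 109 CPM, the narrowest Rhy values of these genes. The untreated colon was itself spread, with Ifit3 at 13.6 to 72.1 CPM over the control libraries, and the Rhy values of Ifit3 were inside that range.

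Rhy 1 had the highest level of the interferon list, 5.96 log2 CPM, followed by Rhy 2 at 5.62 and Rhy 3 at 5.38, and the model libraries were at 5.30, 5.29 and 4.90. The list was 1.06 higher in Rhy 1 than in model 3 and 0.20 higher in Rhy 2 and 3 than in model 1 and 2. Without Rhy 1, the library with the highest mitochondrial share, the median was 0.28, with 24 of 34 genes higher and 1 under an unadjusted p of 0.05. With model 1 and 2 summed it was 0.57 with 33 higher and 2 under that p. The promoters of Ifit3 and Isg15 are printed because both were among the genes that DESeq2 called, and the capitals mark the core of the interferon-stimulated response element, GAAA repeated after a gap of 2 bases, on either strand. Ifit3 is on chr19:34583279-34583578, plus strand, and Isg15 on chr4:156200769-156201068, minus strand, both in GRCm38.p6.
Ifit3: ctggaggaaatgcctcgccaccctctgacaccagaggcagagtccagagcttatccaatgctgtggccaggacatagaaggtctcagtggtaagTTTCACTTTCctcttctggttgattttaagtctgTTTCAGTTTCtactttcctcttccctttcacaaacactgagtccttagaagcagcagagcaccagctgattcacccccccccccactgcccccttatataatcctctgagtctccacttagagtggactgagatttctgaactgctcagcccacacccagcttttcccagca
Isg15: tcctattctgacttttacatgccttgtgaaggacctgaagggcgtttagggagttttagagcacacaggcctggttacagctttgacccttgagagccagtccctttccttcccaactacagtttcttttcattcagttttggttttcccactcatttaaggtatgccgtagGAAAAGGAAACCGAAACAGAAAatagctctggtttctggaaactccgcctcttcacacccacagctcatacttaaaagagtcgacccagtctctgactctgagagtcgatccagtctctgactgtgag
Ifit3 held 2 matches and Isg15 held 3 that overlap one another. Of the 25 genes of the list with a RefSeq window, 16 held the element (64.0%), against 3.93% of all tested genes with a window. Among genes higher in the Rhy group at an unadjusted p under 0.05 the share was 7.89%, and among those lower it was 5.63%.

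The antigen-presenting genes did not move as a block with the interferon list. H2-T22 and H2-T23, nonclassical class I molecules read by innate-like lymphocytes, were among the largest positive differences. H2-T23 was at 5.52, 4.55 and 8.34 CPM in model 1 to 3 and at 13.4, 142 and 98.8 CPM in Rhy 1 to 3, and over the control libraries it ran from 6.70 to 283 CPM. H2-T22 was at 2.92, 1.58 and 2.56 CPM against 5.22, 36.1 and 23.5 CPM. Genes of the H2-T family are related in sequence and can share reads, so how reads were split among them is uncertain. The class II list, which professional antigen-presenting cells use, had a median of -0.64 with 9 of 12 genes lower and 0 genes past the unadjusted threshold by edgeR. Its mean was 2.72 log2 CPM in Rhy 1 and 4.71 and 4.62 in Rhy 2 and 3, against 4.49 to 5.11 in the model libraries. The class II median was -0.29 without Rhy 1 and -0.11 without model 3, with 5 genes higher and 7 lower in either case.

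**Figure D2:**
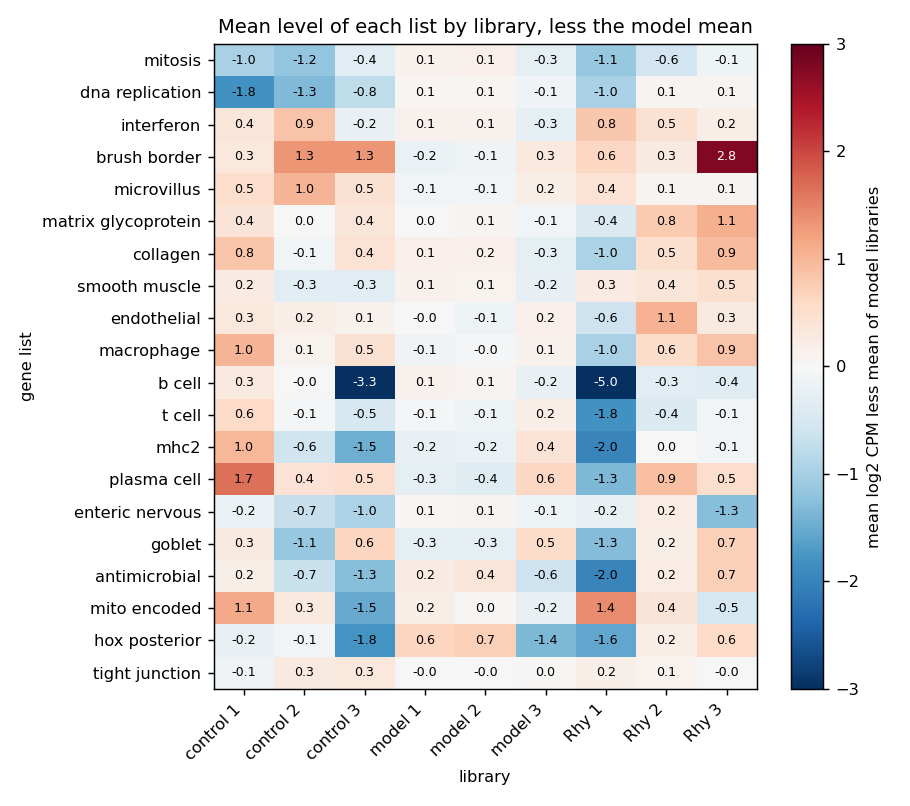
Mean log2 CPM of 20 gene lists (rows) in the control, model and Rhy libraries (columns), each less the mean of the 3 model libraries, with red above and blue below it. The mitotic row is below 0 in all Rhy libraries and the interferon row above 0, whereas the brush border value rests on Rhy 3 and the B cell value on Rhy 1.

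Enzymes and transporters of the absorptive brush border, the layer of microvilli that digests and takes up nutrients, were higher in the Rhy group for all 21 genes tested (median 1.27 in log2), with 10 genes under an unadjusted p of 0.05, but 1 library carried most of it. Fabp6, the ileal bile acid carrier, was at 5.85, 6.86 and 5.48 CPM in model 1 to 3 and at 7.71, 10.1 and 324 CPM in Rhy 1 to 3. Anpep, an aminopeptidase of the microvillus, was at 6.40, 3.28 and 7.27 CPM against 4.37, 10.1 and 579 CPM. Apoa1, the main protein of high-density lipoprotein, was at 461 CPM in Rhy 3 and at most 0.546 CPM in the other 5 libraries, and Sis, sucrase-isomaltase, was at 64.1 CPM in Rhy 3 and at most 1.11 CPM elsewhere. These genes are characteristic of small intestine. Without Rhy 3 the median of the list was 0.36, with 17 genes higher and 4 lower and 1 in each direction under an unadjusted p of 0.05. Genes that stayed apart at lower levels included Slc7a9, a cystine transporter, at 5.07, 5.70 and 4.41 CPM against 6.59, 12.5 and 29.9 CPM (log2 fold change 1.69 ± 0.65).

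The structural proteins of the microvillus, which hold the membrane to its actin core, showed a smaller difference that did not rest on Rhy 3. Of 22 genes 19 were higher, with a median of 0.26, or 0.38 without Rhy 3, and 6 did not overlap. Without Rhy 1 the median was 0.17, with 15 higher and 8 lower. Ezr, ezrin, the linker between membrane and actin, was at 691, 685 and 664 CPM in model 1 to 3 and at 801, 1112 and 1058 CPM in Rhy 1 to 3. All Rhy values were above all model values and inside or near the control range of 745 to 1048 CPM, with a log2 fold change of 0.54 ± 0.23. Eps8, a capping protein of microvillar actin, was at 152, 163 and 159 CPM against 229, 265 and 180 CPM, again without overlap. Of 28 ion transporters and channels 21 were higher with a median of 0.38, or 0.059 without Rhy 3, and 0 under an unadjusted p of 0.05 by edgeR. Slc26a3, the chloride and bicarbonate exchanger of the colon surface, overlapped between the groups at 505, 511 and 335 CPM against 443, 1219 and 646 CPM. Slc34a2, a sodium-phosphate cotransporter that was not in a list, was at 16.3, 14.4 and 10.3 CPM in model 1 to 3 and at 25.0, 87.2 and 61.5 CPM in Rhy 1 to 3. It was among the DESeq2 calls both with the 6 libraries (adjusted p = 0.000989) and with model 1 and 2 summed (DESeq2 adjusted p = 0.0447).

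Among secreted defence proteins, the groups differed gene by gene rather than as a list (17 tested, median 0.09). Reg3b, a lectin that kills bacteria and is a classic acute response of injured gut, was at 4737, 4829 and 1116 CPM in model 1 to 3 and at 31.6, 70.7 and 1093 CPM in Rhy 1 to 3. Control libraries were at 14.1 to 126 CPM. Rhy 1 and Rhy 2 were thus inside the control range, while Rhy 3 was next to model 3, and with this spread the log2 fold change of -3.16 ± 1.73 missed even the unadjusted threshold. Its paralog Reg3g followed it, at 1298, 1348 and 256 CPM against 12.0, 23.1 and 311 CPM, with Rhy 3 above model 3. Reg4, a lectin of deep crypt secretory cells, was at 38.0, 35.7 and 26.03 CPM against 2.83, 230 and 537 CPM. For Reg4, Rhy 2 and 3 were above and Rhy 1 below every model library. The goblet cell list had a median of 0.05, which was -0.30 without Rhy 3 with 2 of 21 genes higher, 0.28 without model 3 with 18 higher, and 0.29 without Rhy 1 with 15 higher. Muc2, the gel-forming mucin, was at 1012, 1037 and 4528 CPM against 717, 960 and 1429 CPM. Insl5, a hormone of colonic L cells, was likewise low in Rhy 1, at 27.1, 29.7 and 8.76 CPM against 2.06, 143 and 131 CPM.

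Ggta1, Fut2 and Sec1 belong to no list and were each named for the size or the p of their own difference. Ggta1, which adds a terminal alpha-galactose, was at 71.3, 75.2 and 10.96 CPM in model 1 to 3 and at 6.42, 9.86 and 10.4 CPM in Rhy 1 to 3. Rhy values were close to the control range of 8.18 to 14.5 CPM, as was model 3, and the log2 fold change was -2.56 ± 0.56. DESeq2 gave Ggta1 an adjusted p of 0.00547 on the 6 libraries and of 0.543 with model 1 and 2 summed. Fut2, the fucosyltransferase that feeds gut bacteria with fucose, was at 371, 366 and 243 CPM against 134, 157 and 142 CPM, without overlap and at the lower end of the 134 to 399 CPM of the control libraries. Its log2 fold change was -1.18 ± 0.43, and DESeq2 on the 6 libraries called it (adjusted p = 0.00129), but not with model 1 and 2 summed (DESeq2 adjusted p = 0.139). Sec1, a related fucosyltransferase next to Fut2 on chromosome 7, was at 3.09, 2.25 and 0.715 CPM against 0, 0.131 and 0.622 CPM, and the counting does not exclude reads shared by these copies.

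Beneath the epithelium, matrix genes were mostly higher in the Rhy group. Of 35 matrix glycoproteins and proteoglycans 32 were higher, with a median of 0.57, and 9 had an unadjusted p under 0.05, all of them higher. Mgp, an inhibitor of calcification, was at 33.2, 33.9 and 25.5 CPM in model 1 to 3 and at 49.7, 67.2 and 61.1 CPM in Rhy 1 to 3. The groups did not overlap, the Rhy values were above the control range of 24.3 to 42.5 CPM, and the log2 fold change was 0.94 ± 0.27. Ogn, a small proteoglycan that binds collagen, was at 41.8, 39.3 and 50.9 CPM against 60.3, 82.2 and 85.8 CPM (log2 fold change 0.79 ± 0.24). Lum and Col14a1, which organise collagen fibrils, were high in Rhy 2 and 3 but not in Rhy 1. Col14a1 was at 3.31, 3.70 and 4.29 CPM against 3.34, 17.5 and 28.4 CPM. Of 21 collagens 17 were higher, with a median of 0.24, which became -0.11 without Rhy 3 and 0.57 without Rhy 1. The matrix glycoprotein list was 0.34 lower in Rhy 1 than in model 3 and 0.88 higher in Rhy 2 and 3 than in model 1 and 2, and without Rhy 3 its median was 0.26.

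Smooth muscle was the most even of the stromal lists. Of 21 contractile genes 18 were higher with a median of 0.35, and 12 of them had no overlap between the groups. Actg2, the enteric smooth muscle actin, was at 865, 884 and 748 CPM in model 1 to 3 and at 1402, 1501 and 1356 CPM in Rhy 1 to 3. The log2 fold change was 0.77 ± 0.33, and DESeq2 gave an adjusted p of 0.00395 on the 6 libraries and 0.103 with model 1 and 2 summed. Mylk, the kinase that starts contraction, was at 367, 366 and 358 CPM against 539, 401 and 447 CPM. The list was 0.50 higher in Rhy 1 than in model 3 and 0.29 higher among the other 4 libraries. Fibroblast and stem cell niche genes were less even (24 tested, 17 higher, median 0.30, or -0.17 without Rhy 3). Wnt2b, a Wnt ligand of the stroma, was at 1.49, 0.910 and 0.834 CPM against 1.54, 3.59 and 2.94 CPM. Hedgehog signals pass from epithelium to stroma, and of 19 genes of that pathway 11 were higher, with a median of 0.14. Hhip, a decoy receptor that binds the ligands and damps the signal, was at 2.21, 0.910 and 5.12 CPM against 1.46, 13.7 and 22.5 CPM. Endothelial genes were higher for 18 of 20 with a median of 0.24, which became -0.13 without Rhy 2.

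**Figure D3:**
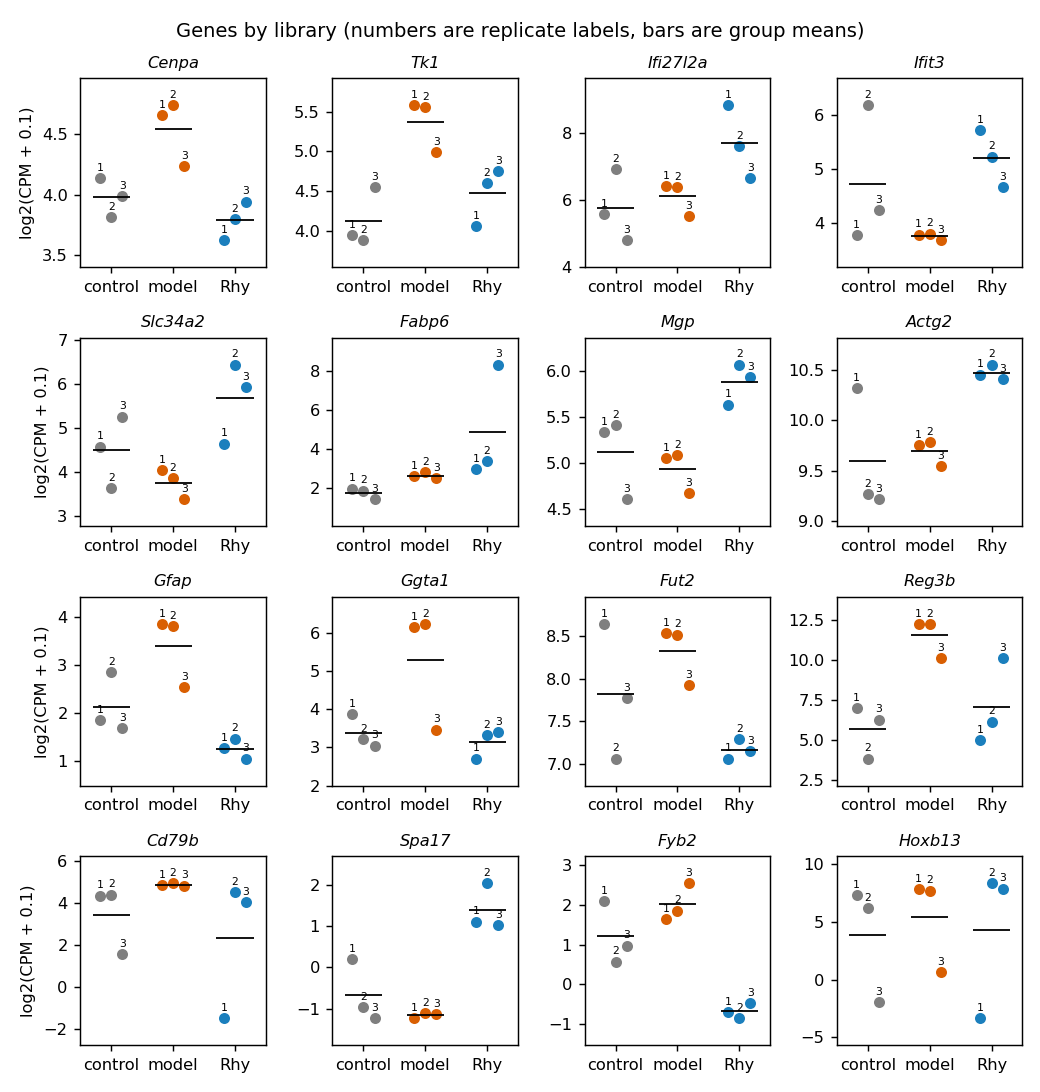
Log2(CPM + 0.1) of 16 genes in the 3 control, 3 model and 3 Rhy libraries, with the replicate number over each point and a bar at the group mean. Cenpa, Ifit3, Mgp, Actg2, Gfap, Spa17 and Fyb2 are among the genes with Rhy points clear of the model points. Fabp6 and Cd79b do not overlap either, but most of the difference comes from Rhy 3 for Fabp6 and from Rhy 1 for Cd79b. Hoxb13 is low in 1 library of each group.

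Lymphocyte genes were lower in the Rhy group, most of all in Rhy 1. Of 18 B cell genes 17 were lower with a median of -0.80, 5 did not overlap, and 0 had an unadjusted p under 0.05 by edgeR. With the Hoxb13 level as a covariate, 13 of the 18 had one, all lower, with a median of -1.81. Over all genes, that fit had 577 of 16904 lower and 367 higher at an unadjusted p under 0.05. Rhy 1, the library lowest for the B cell list, was also almost without Hoxb13. Cd79b, part of the B cell receptor, was at 28.7, 30.3 and 28.1 CPM in model 1 to 3 and at 0.257, 22.5 and 16.2 CPM in Rhy 1 to 3, and Cxcr5, the chemokine receptor of follicles, at 11.5, 9.77 and 9.29 CPM against 0.599, 6.47 and 5.60 CPM. The mean of the list was -1.02 log2 CPM in Rhy 1, against 3.69 and 3.64 in Rhy 2 and 3 and 3.78 to 4.14 in the model libraries, and 0.73 in control 3, an untreated library. Without Rhy 1 the median was -0.31 with 17 of 18 still lower and 0 under an unadjusted p of 0.05 by edgeR. Of 24 T cell genes 23 were lower with a median of -0.57. Lck, the kinase of the T cell receptor, was at 9.54, 10.4 and 11.1 CPM against 3.25, 8.03 and 6.05 CPM (log2 fold change -0.84 ± 0.35). Cd3e, a chain of the same receptor, was at 2.43, 3.22 and 4.11 CPM against 0.599, 1.11 and 2.26 CPM. Without Rhy 1 the T cell median was -0.29, with 15 lower and 9 higher. How much lymphoid tissue each section held was not tested.

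Macrophage genes leaned the other way, with 18 of 22 higher and a median of 0.35. Cd163, the haemoglobin scavenger receptor of resident macrophages, was at 0.331, 0.485 and 0.655 CPM in model 1 to 3 and at 1.97, 1.83 and 1.75 CPM in Rhy 1 to 3, inside the control range of 0.974 to 4.50 CPM. The groups did not overlap and the log2 fold change was 1.90 ± 0.71. Mrc1, the mannose receptor, was at 4.36, 4.43 and 4.71 CPM against 3.77, 10.3 and 19.4 CPM, with Rhy 1 below the model libraries. Without Rhy 3 the macrophage median was -0.03. Of the 35 cytokines, chemokines and other inflammation genes, only 21 had enough counts to test, with a median of 0.17, 11 higher and 10 lower. The median was 0.55 without Rhy 1, -0.37 without Rhy 3 and -0.056 without model 3. Il6, Il17a, Ifng, Cxcl2 and Mpo were among the 14 that were too low to test. Ccl7, a monocyte attractant, was at 2.04, 1.88 and 0.417 CPM against 0.171, 14.4 and 5.15 CPM. Mmp3, a matrix protease of inflamed stroma, was at 3.31, 2.85 and 2.68 CPM against 0.171, 1.96 and 1.36 CPM, without overlap and with a log2 fold change of -1.31 ± 0.67 that missed the unadjusted threshold. Of 14 neutrophil genes 6 were tested, all 6 with a fold change above 0, which held for 2 of the 6 without Rhy 2 and for 3 without Rhy 3. S100a8 and S100a9 were under 1 CPM in all 6 libraries.

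In the enteric nervous system, which runs through the muscle and submucosa, 13 of 21 genes were lower with a median of -0.17. Gfap, the filament of enteric glia, was at 14.5, 14.0 and 5.72 CPM in model 1 to 3 and at 2.31, 2.68 and 1.98 CPM in Rhy 1 to 3. All Rhy values were below the control range of 3.13 to 7.16 CPM as well as below the model, and the log2 fold change was -2.29 ± 0.53. DESeq2 called it on the 6 libraries (adjusted p = 0.000318) and not with model 1 and 2 summed (DESeq2 adjusted p = 0.0628). Nos1, the nitric oxide synthase of inhibitory neurons, was at 33.4, 28.0 and 14.8 CPM against 7.19, 18.9 and 4.53 CPM, where Rhy 2 lay above model 3. The list was lowest in Rhy 3, and without Rhy 3 its median was 0.16. Dclk1, a kinase of tuft cells that enteric neurons also express, was at 21.6, 20.2 and 14.7 CPM against 10.6, 13.5 and 6.22 CPM (log2 fold change -0.90 ± 0.27). The 12 tuft cell genes tested had 6 higher and 6 lower.

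The genes on which the study centred were higher in the Rhy group for 9 of 10 (median 0.55 in log2), but the study took some of them from these samples, so the list is not independent evidence of its direction. Nr4a1 was at 15.3, 12.5 and 13.9 CPM in model 1 to 3 and at 11.2, 33.8 and 63.5 CPM in Rhy 1 to 3. Rhy 2 and 3 were above every model library and Rhy 1 was below them, so the groups overlapped, and the log2 fold change of 1.38 ± 0.80 missed the unadjusted threshold. Ahr was at 14.8, 17.4 and 16.0 CPM against 16.3, 20.4 and 23.1 CPM. Cyp1a1 was at 6.18, 6.13 and 16.6 CPM against 19.5, 25.2 and 16.3 CPM, where Rhy 3 equalled model 3 to within 0.3 CPM, and the control libraries ran from 0.0749 to 254 CPM. Tjp1, which encodes ZO-1, was at 93.6, 93.6 and 84.8 CPM against 108, 113 and 111 CPM, without overlap, with a log2 fold change of 0.29 ± 0.21 that missed the unadjusted threshold. Ocln was at 66.0, 65.5 and 64.6 CPM against 92.0, 78.3 and 65.2 CPM, and Cldn4 at 96.4, 88.6 and 112 CPM against 92.8, 84.2 and 82.4 CPM. Of these junction genes only Tjp1 had no overlap. For Ocln, Rhy 1 and 2 were above and Rhy 3 was inside the model values, and for Cldn4 the fold change was below 0. Lpar1, a lysophosphatidic acid receptor, had the smallest p of the 10, at 38.8, 37.9 and 39.3 CPM against 48.4, 53.4 and 59.2 CPM (log2 fold change 0.47 ± 0.18), and with model 1 and 2 summed 0 of the 10 genes passed the unadjusted threshold by edgeR. With 3 libraries against 3 an exact two-sided permutation test cannot go below 0.1, and over these 10 genes it gave 0.1 to 0.4. Of 25 tight junction genes as a whole, 14 were higher with a median of 0.01. The one with an unadjusted p under 0.05 was Cldn1, a sealing claudin, at 0.441, 0.425 and 0.298 CPM against 0.599, 2.09 and 4.07 CPM.

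**Figure D4:**
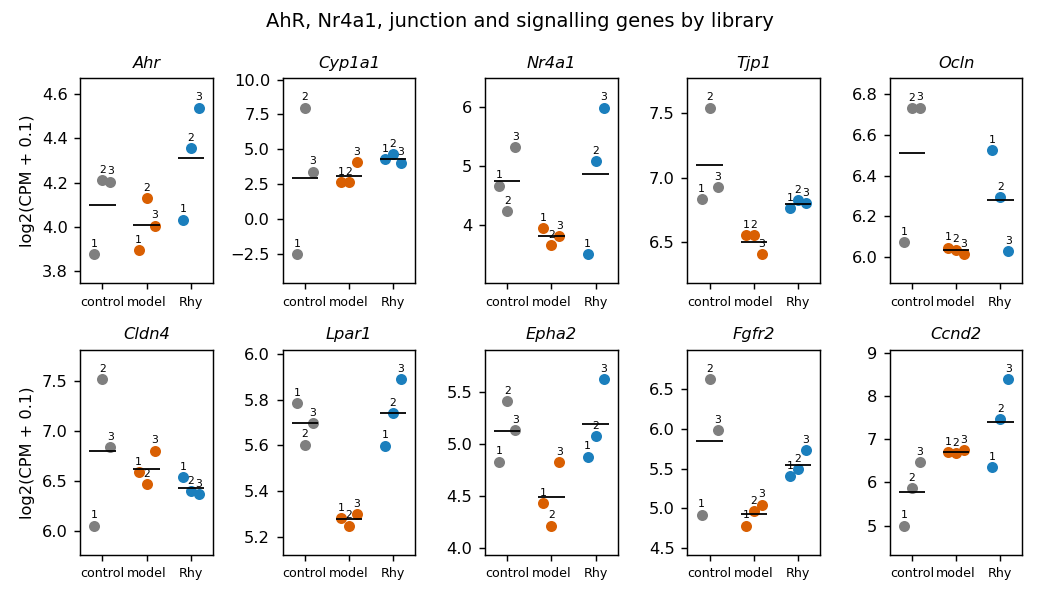
Log2(CPM + 0.1) of Ahr, Cyp1a1, Nr4a1 and 7 junction or signalling genes in the control, model and Rhy libraries, with the replicate number over each point and a bar at the group mean. Lpar1, Tjp1, Fgfr2 and Epha2 have no overlap between model and Rhy, whereas Rhy 1 is the lowest of the 6 points for Nr4a1.

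The AhR and its partner ARNT bind a core of the letters GCGTG, and the windows of Nr4a1 and Cyp1a1 are given because the study links these genes, with each match on either strand in capitals. Nr4a1 is on chr15:101266596-101266895 and Cyp1a1 on chr9:57697363-57697662, both plus strand in GRCm38.p6.
Nr4a1: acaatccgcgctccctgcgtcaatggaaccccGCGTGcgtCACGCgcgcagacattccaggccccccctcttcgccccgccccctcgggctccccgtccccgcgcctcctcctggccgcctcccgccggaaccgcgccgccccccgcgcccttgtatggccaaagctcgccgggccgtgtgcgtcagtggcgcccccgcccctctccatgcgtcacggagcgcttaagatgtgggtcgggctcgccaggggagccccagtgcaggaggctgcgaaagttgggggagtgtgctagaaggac
Cyp1a1: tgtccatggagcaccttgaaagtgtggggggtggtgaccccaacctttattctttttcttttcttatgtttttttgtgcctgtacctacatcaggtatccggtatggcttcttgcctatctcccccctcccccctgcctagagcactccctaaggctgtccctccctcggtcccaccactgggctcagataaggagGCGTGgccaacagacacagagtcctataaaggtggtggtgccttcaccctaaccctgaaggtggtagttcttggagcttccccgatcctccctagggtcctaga
Nr4a1 had 2 matches and Cyp1a1 had 1. The AhR site that the paper predicted in the NR4A1 promoter is another, AT-rich stretch. It holds no GCGTG on either strand and is not in the Nr4a1 window printed here. Of the 8 study genes with a RefSeq window 7 held the core (87.5%), and so did 52.9% of all tested genes with a window and 35.2% of all genes in the table. The core was in a window of 72 of 190 genes higher in the Rhy group at an unadjusted p under 0.05 (37.9%) and of 129 of 231 genes lower (55.8%). The AhR target list itself, 10 genes tested, had a median of 0.00, with 5 higher and 5 lower. Ugt1a6a, which conjugates drugs to glucuronic acid, was at 6.34, 9.71 and 5.84 CPM in model 1 to 3 and at 3.85, 1.96 and 2.43 CPM in Rhy 1 to 3. Gsta1, a glutathione transferase, was at 8.27, 7.77 and 6.43 CPM against 12.2, 11.6 and 11.3 CPM. Both were without overlap and in opposite directions. Of 30 immediate early genes, the class to which Nr4a1 belongs, 24 were higher with a median of 0.28, and 0 had an unadjusted p under 0.05 by edgeR. This list was 0.46 lower in Rhy 1 than in model 3 and 0.47 higher in Rhy 2 and 3 than in model 1 and 2.

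**Figure D5:**
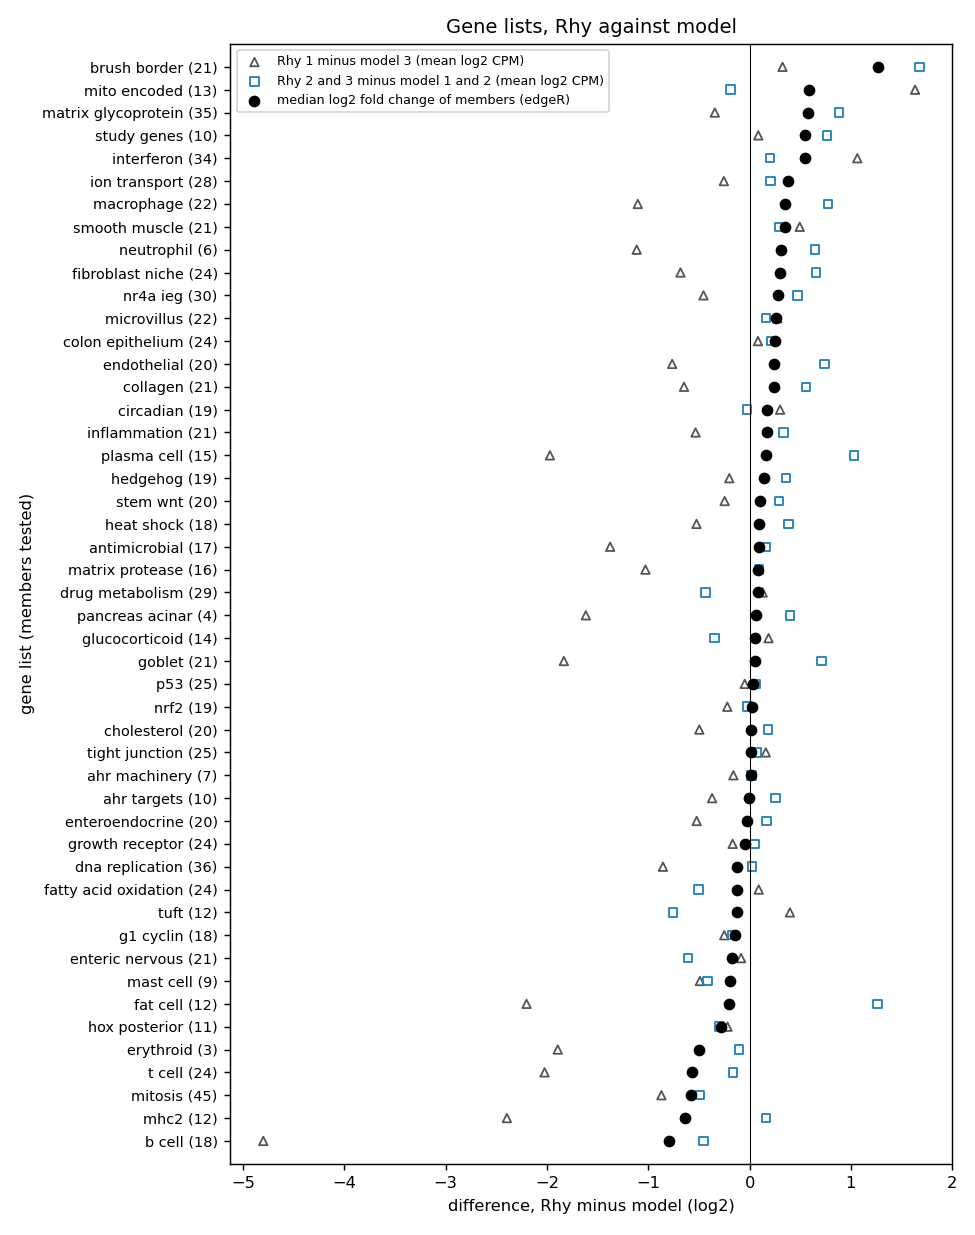
Median log2 fold change of the genes tested in each list (filled circles) beside the difference of mean log2 CPM between Rhy 1 and model 3 (triangles), the libraries almost without Hoxb13, and between Rhy 2 and 3 and model 1 and 2 (squares). Among the lists below 0 by all 3 measures are mitosis (-0.58), B cell (-0.80) and T cell (-0.57). Among those above 0 by all 3 are interferon (0.54), smooth muscle (0.35), microvillus (0.26) and brush border (1.27). The brush border square joins Rhy 3 at 6.255 with Rhy 2 at 3.753 log2 CPM. Many other immune and stromal lists have a triangle and a square on opposite sides of 0.

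The remaining lists lay closer to 0 or turned on single libraries. Mitochondrially encoded genes were higher for 13 of 13 with a median of 0.58, following a mitochondrial share of counts of 23.8%, 15.2% and 8.90% in Rhy 1 to 3 against 13.4%, 14.0% and 11.1% in model 1 to 3, and without Rhy 1 the median was 0.09. One of these, mt-Nd3, was without overlap, at 7.01, 9.53 and 8.995 CPM against 26.8, 18.6 and 15.7 CPM. Fat cell genes had a median of -0.20 with model 3 far above the others, at 4.64 log2 CPM against 1.27 to 3.42 in the other 5 libraries. Of 24 fatty acid oxidation genes 19 were lower, with a median of -0.12, which was -0.75 without Rhy 1 with all 24 lower and 0.26 without model 3 with 21 higher. Nrf2 targets (0.03), p53 targets (0.03), cholesterol synthesis (0.02) and growth factor receptors (-0.04) had medians near that of all genes. Of 14 glucocorticoid targets 1 had an unadjusted p under 0.05, Zbtb16, a transcription factor, at 5.02, 5.89 and 2.62 CPM against 0.856, 1.502 and 1.42 CPM (log2 fold change -1.83 ± 0.54). Of 29 drug metabolism genes 1 did, Akr1c14, an aldo-keto reductase, at 72.3, 72.0 and 89.4 CPM against 149, 89.0 and 147 CPM.

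Outside the lists, the genes with the largest separations were mostly expressed at a few CPM. Spa17, a sperm protein that also occurs in ciliated cells, had the smallest p of the named genes, at 0.331, 0.364 and 0.357 CPM in model 1 to 3 and at 2.06, 3.98 and 1.92 CPM in Rhy 1 to 3 (log2 fold change 2.89 ± 0.53). It was above the control range of 0.329 to 1.05 CPM too, and DESeq2 called it with and without the sum of model 1 and 2 (adjusted p of 0.0345 and 0.0025). Fyb2, an adaptor of T cell signalling, was at 3.03, 3.52 and 5.72 CPM against 0.514, 0.457 and 0.622 CPM, below the control range of 1.39 to 4.19 CPM (log2 fold change -2.92 ± 0.80). Raet1e, a stress ligand of the NKG2D receptor of killer cells, was at 2.81, 3.40 and 3.63 CPM against 0.257, 0.261 and 0 CPM, but from 0.165 to 7.02 CPM over the control libraries. Ptprn2, a protein of secretory granules, was at 9.49, 11.3 and 10.2 CPM against 3.60, 3.07 and 3.28 CPM, but from 2.77 to 29.4 CPM over the control libraries. DESeq2 called Fyb2, Raet1e and Ptprn2 also with model 1 and 2 summed, with adjusted p of 0.00475, 0.00614 and 0.00614.

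Further genes named by the size of their difference were at low to moderate levels. Oprd1, the delta opioid receptor, was at 1.54, 2.49 and 1.49 CPM against 0.257, 0.327 and 0.113 CPM, and Adora2b, the adenosine receptor that drives chloride secretion, at 4.91, 5.16 and 4.05 CPM against 1.54, 0.457 and 1.36 CPM. Steap4, a metalloreductase induced in inflammation, was at 38.9, 32.4 and 22.04 CPM against 10.4, 13.1 and 8.49 CPM, a log2 fold change of -1.55 ± 0.58. In the Hoxb cluster of homeobox genes, the antisense transcript Hoxb5os was at 5.57, 4.67 and 5.00 CPM against 1.03, 1.37 and 1.47 CPM, below the control range of 2.14 to 2.92 CPM (log2 fold change -1.96 ± 0.46), and reads counted on the microRNA gene Mir196a-1 in that cluster were at 6.45, 4.61 and 3.46 CPM against 0.685, 1.11 and 1.75 CPM. Hoxb9, a homeobox gene between them, was at 64.4, 66.8 and 77.1 CPM against 66.4, 15.3 and 24.1 CPM, where Rhy 1 was at the model level. Whether the counting was stranded is not stated. If it was not, reads of an antisense or overlapping gene cannot be told apart from those of its partner. On the higher side Atp5g1, a subunit of the ATP synthase ring, was at 146, 151 and 221 CPM against 397, 436 and 387 CPM, above the control range of 207 to 255 CPM, with a log2 fold change of 1.23 ± 0.29. Cytl1, a secreted cytokine-like protein, was at 0.331, 0.303 and 1.13 CPM against 2.83, 9.93 and 2.89 CPM.

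Of the 44 genes that DESeq2 called on the 6 libraries, 43 had no overlap between the groups and 42 had an unadjusted edgeR p under 0.05. Both counts use the libraries that gave the calls, so they are no independent check of them. Interferon genes appeared among the 44 calls several times (Ifit1, Ifit3, Isg15 and Zbp1 of the list), as did Actg2, Mgp, Gfap and Fut2. None of these named genes was called by DESeq2 with model 1 and 2 summed, where their adjusted p ran from 0.0628 to 0.234. Ifit1, which binds foreign RNA caps, was at 65.1, 62.2 and 64.9 CPM in model 1 to 3 and at 203, 133 and 117 CPM in Rhy 1 to 3. The mitotic genes were absent from these calls, and for Cenpa the adjusted p was 0.366 by DESeq2 on the 6 libraries. Since model 1 and model 2 were nearly the same library, the 44 calls are to be read beside the 14 of them that were called when that pair was summed.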

How the data were processed

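RNA-Seq of sections of mouse colon gave 12 libraries, 3 each of control, model, Rhy and DXM. Per the submitters' processing notes the tools were HISAT2 2.0.5, featureCounts 1.5.0-p3 and DESeq2 1.16.1 with build mm10; strand is not stated, and the paper's methods name no test for these data. The deposited values are raw read counts per gene, and FPKM values that the authors scaled from them. Of 54532 genes, 24548 had no count, and edgeR's filterByExpr (minimum count 10) left 16904. edgeR 4.0.16 under R 4.3.3 fitted the counts (scaled by TMM, glmQLFit and glmQLFTest, two-sided, all 12 libraries in 1 fit, contrast Rhy minus model, Benjamini-Hochberg adjustment). A standard error is the log2 fold change over the root of F. CPM carries no prior count and is scaled by TMM; log2 CPM of lists has a prior count of 2. Alternatives used DESeq2 1.42.0 and limma 3.58.1 (on FPKM), other scalings and filters, a summed model 1 and 2, Hoxb13 as a covariate and each library left out. The fits were checked on simulated data, with limma there on CPM. Those data held no near-identical pair of libraries and no library made to differ from its group. Total counts of 14346478 to 16948352 per library limit genes of under about 1 CPM to a few reads.

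The members, the 48 gene lists (written from general knowledge) and the named genes were chosen with earlier results of these data known. Named were the study's 10 genes, the 15 largest differences in each direction among non-overlapping genes with an unadjusted p under 0.05 and at least 1 CPM, the 4 smallest p of each list, the 15 smallest adjusted p of DESeq2 on 6 libraries, and colon markers with Hoxb13. Unnamed gene models, pseudogenes and receptor segments were counted but not named. Ifit1 and Slc7a9 were added after their values were seen, and the same holds for Cd79b, S100a8, S100a9, Il6, Il17a, Ifng, Cxcl2 and Mpo where the text gives them. Promoter windows are from RefSeq on GRCm38.p6; of the 16897 symbols tested, 11948 had one.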

Additional observations from a re-analysis of the deposited data

How the results depend on the processing

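Counts of genes depended on the tool and on single libraries. Genes past an adjusted p of 0.05 numbered 0 by edgeR, 5 by DESeq2 on all libraries, 44 by DESeq2 on the 6 libraries, 17 by DESeq2 with model 1 and 2 summed and 2 by limma on log2(FPKM + 0.1), and 0 to 1 with 1 library left out, the 1 without model 3. Genes past the unadjusted threshold numbered 628, and 972 among genes with any count, 1021 by DESeq2 on the 6 libraries, 283 with model 1 and 2 summed, 944 with Hoxb13 as a covariate, and 289 (without model 1) to 1066 (without Rhy 1) with 1 library left out. Genes without overlap numbered 1950, and 2492 with model 1 and 2 summed. With 1 library left out they numbered 2503 to 5741. In both cases fewer libraries make overlap rarer. The cause of the other differences was not tested.

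Of 48 list medians, 34 moved by less than the spread between libraries under every alternative. That spread is wide where 1 library differs, so staying within it does not show a stable median. Brush border, at 1.27 and at 0.36 without Rhy 3, stayed within its spread of 0.98. Medians within the spread also changed sign with 1 library left out. This held for inflammation (-0.37 to 0.55), goblet (-0.30 to 0.29) and fatty acid oxidation (-0.75 to 0.26). It also held for antimicrobial (-0.15 to 0.42) and drug metabolism genes (-0.45 to 0.45). Collagen (-0.11 to 0.57), macrophage (-0.03 to 0.75), fibroblast niche (-0.17 to 0.59) and endothelial genes (-0.13 to 0.56) did so too. With 1 library left out the medians ran from -0.035 to 0.20 for AhR machinery, -0.11 to 0.36 for AhR targets, -0.075 to 0.22 for enteroendocrine, -0.67 to 1.88 for fat cell, -0.24 to -0.10 for G1 cyclin, -0.31 to 0.23 for glucocorticoid, -0.11 to 0.11 for growth receptor, -0.13 to 0.24 for Hedgehog, -1.93 to -0.27 for mast cell, -0.056 to 0.17 for Nrf2, -0.10 to 0.061 for p53, 0.31 to 0.52 for smooth muscle, -0.082 to 0.11 for tight junction and -0.79 to 0.22 for tuft cell genes. The G1 cyclin median was also -0.083 by DESeq2 with model 1 and 2 summed and -0.20 with Hoxb13 as a covariate. Of the 81 genes given in the text, colon markers aside, 77 kept their sign under these alternatives. With 1 library left out, Muc2 ran from -1.43 without model 1 to 0.045 without model 3, Apoa1 from -1.49 without Rhy 3 to 11.2 without model 2, S100a8 from -0.017 without Rhy 2 to 2.90 without model 2, and S100a9 from -0.15 without Rhy 3 to 0.75 without Rhy 1. S100a9 was also at -0.26 by limma on log2(FPKM + 0.1) and at -0.13 with the replicate block.

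With the replicate number as a block, edgeR called 0 genes by adjusted p and 626 before adjustment, and the p53 median was -0.036. Deviations of same-numbered model and Rhy libraries correlated at -0.231, 0.142 and -0.198, so the numbers were not taken to pair the samples. Genes under about 1 CPM rest on a few reads per library, and with 3 libraries a group the spread between them sets what can be called.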

Other observations

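Several further lists and genes had values that belong to none of the comparisons above. Of 15 plasma cell genes 10 were higher in the Rhy group, with a median log2 fold change of 0.16. Jchain, which joins secreted IgA, was at 37.8, 40.6 and 311 CPM in model 1 to 3 and at 45.8, 483 and 360 CPM in Rhy 1 to 3, so that Rhy 1 lay with model 1 and 2, and Rhy 2 and 3 lay above model 3. Of 20 genes of stem cells and Wnt signalling 13 were higher, with a median of 0.10. Hopx, a gene of reserve stem cells, was at 17.9, 14.5 and 13.2 CPM against 17.4, 29.6 and 28.8 CPM. Of 19 circadian genes 15 were higher with a median of 0.17, and of 18 heat shock genes 12 were higher with a median of 0.09. By edgeR, 0 genes of these 4 lists were under 0.05 before adjustment.

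The vessel genes Lyve1 and Cd34 showed a similar contrast among the Rhy libraries. Lyve1, a receptor of lymphatic vessels, was at 5.90, 6.13 and 4.29 CPM against 4.28, 18.3 and 13.5 CPM, and Cd34, of vessels and stromal cells, at 10.04, 8.49 and 9.35 CPM against 9.76, 27.4 and 27.3 CPM. In both, Rhy 2 and 3 were above every model library and Rhy 1 was not. Cd82, a tetraspanin of the p53 list, was even across its libraries, at 213, 202 and 210 CPM against 310, 311 and 257 CPM, without overlap.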
